A study of Mus musculus with 20 samples.

Results

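The 10 genes described here are Fos, Fosb, Jun, Junb, Egr1, Egr2, Nr4a1, Atf3, Ier2 and Dusp1, a set of immediate early response genes chosen by symbol. All 10 were found among the 24062 genes counted in each library, and all 10 passed the filter on low counts in both tissues. They were measured by poly(A) RNA sequencing, in 20 libraries made from the tissues of male C57BL/6N mice fed chow. Libraries came from pituitary labelled Klf14 knockout (KO), pituitary labelled wild type (WT), inguinal white adipose tissue (iWAT, a fat depot under the skin of the groin) labelled KO and iWAT labelled WT, with 5 libraries each. In each tissue the labelled KO libraries were from mice of 21 weeks, except replicate 50 at 19 weeks. The labelled WT libraries were from mice of 21 weeks (replicates 33 and 34), 19 weeks (48 and 49) and 18 weeks (56). How the Klf14 allele was made, the time of day and the way the tissues were taken are not given in the sources.

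Immediate early genes are transcribed within minutes of a stimulus from signalling pathways already present in the cell, with no new protein needed, and their messages are short lived. Growth factor and stress signals reach them through ternary complex factors with serum response factor, and calcium and cAMP signals through CREB. Many encode transcription factors that turn on later genes, and others, such as Dusp1, end the signal. In the pituitary, hypothalamic releasing hormones induce them. In fat, adrenergic and inflammatory signals do.

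Total counts were 13.6 to 18.7 M (mega-counts) per library. Klf14 was measured first, since it is the targeted gene. In the pituitary it was higher in libraries labelled KO (31.8 ± 2.86 CPM) than in those labelled WT (15.9 ± 1.72 CPM; SD, n = 5 each; log2 fold change 1.0, SE 0.086, edgeR adjusted p = 7.64e-05), where CPM is counts per mega-count of TMM-scaled library size. Its iWAT mean was 1.59 ± 0.809 CPM over the libraries labelled KO and 0.937 ± 1.28 CPM over those labelled WT (SD, n = 5 each). The pituitary counts were thus higher, not lower, under the KO label. The deleted stretch of Klf14 is not described in the sources, so these counts cannot check the labels. Every direction below rests on the genotype as labelled. The 5 defining pituitary markers (Gh, Prl, Pomc, Cga and Pou1f1) summed to 96992 to 148437 CPM in the pituitary libraries. In iWAT they summed to at most 1.52 CPM in 9 libraries and to 123.2 CPM in KO replicate 32. The 5 adipocyte markers (Adipoq, Fabp4, Plin1, Cidec and Lep) summed to at most 3.69 CPM in the pituitary and to 4783 to 18231 CPM in iWAT. The labels do not say whether each library of a group is a separate animal, so p-values reflect only how these libraries vary, which may be technical. In whole tissue, fewer cells of a type and less RNA per cell cannot be told apart.

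The sequences before the start sites of 5 members are shown, a choice made after their levels were seen. Fos, Fosb and Nr4a1 were among the most variable in the pituitary, where Dusp1 followed Fos most closely and Jun least. No single rule gives this set. Atf3 varied more than Nr4a1, and Junb, Ier2 and Egr1 followed Fos more closely than Nr4a1 did. The sequences shown are RefSeq sequences of build GRCm38.p6, 250 bases up to the annotated start, written 5′ to 3′ on the strand of the gene. Capitals mark TGACG or its reverse complement CGTCA, the core of the cAMP response element to which CREB and ATF proteins bind.

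Fos, chr12:85473640-85473889, + strand: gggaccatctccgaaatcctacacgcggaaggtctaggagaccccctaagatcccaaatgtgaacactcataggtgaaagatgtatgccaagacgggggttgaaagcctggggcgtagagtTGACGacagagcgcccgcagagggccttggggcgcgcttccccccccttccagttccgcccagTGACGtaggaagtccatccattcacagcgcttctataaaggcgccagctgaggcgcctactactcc

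Fosb, chr7:19310046-19310295, - strand: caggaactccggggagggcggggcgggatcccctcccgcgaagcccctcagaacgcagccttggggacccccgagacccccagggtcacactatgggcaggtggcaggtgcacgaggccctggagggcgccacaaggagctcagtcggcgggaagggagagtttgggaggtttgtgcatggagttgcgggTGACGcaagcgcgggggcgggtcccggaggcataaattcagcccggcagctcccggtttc

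Nr4a1, chr15:101266596-101266845, + strand: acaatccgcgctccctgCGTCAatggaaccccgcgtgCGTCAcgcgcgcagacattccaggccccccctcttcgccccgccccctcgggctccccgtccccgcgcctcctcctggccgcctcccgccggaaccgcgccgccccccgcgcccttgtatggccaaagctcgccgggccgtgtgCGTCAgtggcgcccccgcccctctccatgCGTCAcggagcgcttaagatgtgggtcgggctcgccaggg

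Dusp1, chr17:26508473-26508722, - strand: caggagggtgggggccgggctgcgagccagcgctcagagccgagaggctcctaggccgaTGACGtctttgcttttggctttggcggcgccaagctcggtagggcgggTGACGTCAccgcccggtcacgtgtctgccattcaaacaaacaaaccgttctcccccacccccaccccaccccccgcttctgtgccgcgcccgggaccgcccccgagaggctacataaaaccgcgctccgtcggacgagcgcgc

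Jun, chr4:95052223-95052472, - strand: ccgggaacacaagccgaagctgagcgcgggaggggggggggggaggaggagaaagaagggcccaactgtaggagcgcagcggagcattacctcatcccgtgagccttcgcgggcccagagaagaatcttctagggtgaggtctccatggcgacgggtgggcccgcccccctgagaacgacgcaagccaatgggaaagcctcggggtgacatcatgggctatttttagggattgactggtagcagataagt

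The match to TGACG on either strand was found 2 times in Fos, 1 time in Fosb, 4 times in Nr4a1 and 3 times in Dusp1. In Dusp1 a pair of matches overlaps as TGACGTCA, the full palindromic element, which was present in 2.03% of all genes with a window. No match was found in Jun. RefSeq start windows were matched for 8 of the 10 members, and Egr1 and Ier2 had none, so their motifs are unknown here. The search covered 300 bases, from 250 before to 50 after the start. Motifs farther from the start were not looked for, so no match does not mean that a gene lacks the element. Egr2 has 5 such windows, which overlap in part, and the other 7 members have 1 each. A gene was counted when any of its windows held the motif, for the members and for all 27025 genes in the table alike. TGACG was present in 7 of these 8 members (all but Jun) and in 23.0% of all genes. A TATAAA box was found in 2 members (Fos and Junb), against 15.7% of all genes, and the CArG box to which serum response factor binds in 1 (Egr2, in 4 of its 5 windows), against 1.81%. GGGCGG, the core of a GC box, was found in 7 members (all but Junb), against 38.2%. The AP-1 site TGANTCA was found in 0 members, against 8.97%. These matches describe the letters of the windows only.

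The tissues set the members at different levels and in a different order. On the scale of CPM per kilobase of counted exon, mean levels in the pituitary ran from Junb (73.6 ± 20.05) and Fos (63.8 ± 30.4) through Dusp1 (33.2), Nr4a1 (30.9), Egr1 (24.5), Ier2 (12.5), Jun (4.46) and Fosb (2.80) to Atf3 (0.767) and Egr2 (0.568; SD, n = 10 libraries). In iWAT the order by the same measure was Dusp1 (29.6 ± 11.6), Junb (25.2 ± 4.27), Jun (13.7), Ier2 (11.8), Nr4a1 (7.11), Fos (6.26), Egr1 (6.12), Atf3 (3.04), Egr2 (1.91) and Fosb (0.463; SD, n = 10). Neighbours in these orders overlapped in their ranges over the libraries, with the exception of Ier2 above Jun in the pituitary. Fos was above Dusp1 in 10 of 10 pituitary libraries although their ranges overlapped. The plot of levels per length in the tissues shows Fos, Fosb, Nr4a1, Egr1 and Junb above the diagonal and Jun, Atf3 and Egr2 below it.

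**Figure D1:**
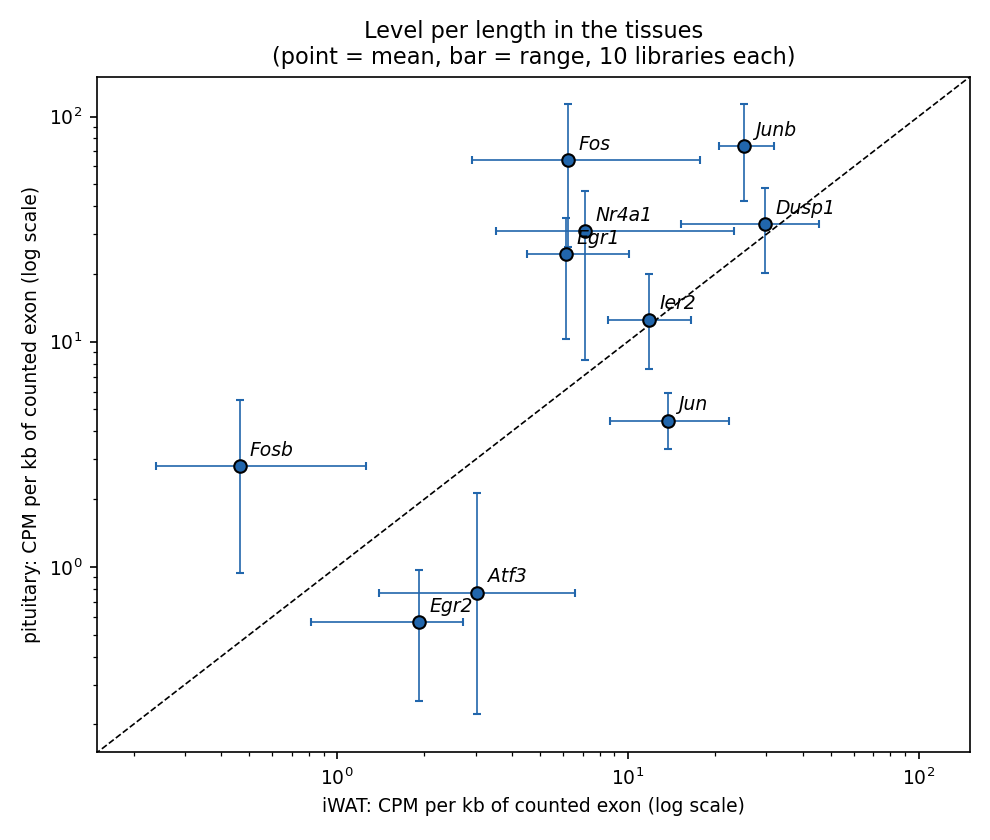
Mean level of each gene in the pituitary (vertical axis) against iWAT (horizontal axis), both in CPM per kilobase of counted exon on log scales. Bars span the lowest to the highest of 10 libraries in each tissue and the dashed line marks equal levels. Fos lies farthest above the line at 63.8 against 6.26, Jun lies below it at 4.46 against 13.7, and Dusp1 and Ier2 lie on it.

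Fos, the AP-1 subunit most used as a marker of recent stimulation, ranged from 55.3 to 237 CPM over the pituitary libraries (median 129.9 CPM), and from 6.12 to 37.2 CPM over the iWAT libraries (median 11.9 CPM). Every pituitary library was above every iWAT library, and the pituitary level was 10.2-fold higher (log2 fold change 3.35, SE 0.31, edgeR adjusted p = 5.04e-09). Its close relative Fosb had a median of 7.62 CPM in the pituitary and 1.51 CPM in iWAT, and was 6.14-fold higher in the pituitary (log2 2.62, SE 0.37), although the lowest pituitary library (3.56 CPM) was below the highest iWAT library (4.77 CPM).

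Jun, which pairs with Fos proteins to form AP-1, went the other way. It ranged from 10.7 to 18.9 CPM with a median of 14.2 CPM in the pituitary, and from 27.7 to 71.0 CPM with a median of 42.8 CPM in iWAT, so that the ranges did not meet (log2 fold change -1.62, SE 0.18, edgeR adjusted p = 5.97e-08). Junb, another Jun family subunit, ranged from 77.2 to 208 CPM in the pituitary and from 38.0 to 58.4 CPM in iWAT, again without overlap, and was 2.91-fold higher in the pituitary (log2 1.54, SE 0.14). The ratio of Fos to Jun per kilobase had a median of 12.7 in the pituitary (7.82 to 24.6) and of 0.415 in iWAT (0.258 to 0.798). Against Junb, Fos had a median ratio of 0.782 in the pituitary (0.493 to 1.25) and of 0.229 in iWAT (0.119 to 0.615). Fos was thus above Jun in every pituitary library and below it in every iWAT library, while Junb was the most abundant AP-1 member of the set by mean level in both tissues, above Fos in 8 of 10 pituitary libraries and above Jun in 9 of 10 iWAT libraries. In the annotation of GENCODE M21 the antisense gene Junos overlaps the exon of Jun, and the counting used no strand option, so the counts of Jun may hold reads of Junos. No other member shares exon bases with an annotated gene.

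Egr1, a zinc finger transcription factor that in gonadotrophs carries the signal of gonadotropin-releasing hormone to the luteinizing hormone beta gene, was 31.5 to 109 CPM in the pituitary (median 79.6) and 13.8 to 31.1 CPM in iWAT (median 16.8). The pituitary libraries were all above the iWAT libraries (log2 fold change 1.97, SE 0.18). Its paralogue Egr2, a regulator of myelination in Schwann cells that is also induced early in adipogenesis, went the other way (1.68 ± 0.757 CPM in the pituitary and 5.67 ± 1.595 CPM in iWAT; log2 -1.74, SE 0.24). The iWAT libraries differed in cell content. Markers of B and T cells summed to 12.7 CPM in KO replicate 50, where Egr2 was lowest (2.41 CPM), and to 250 to 1079 CPM in the others. Egr2 was highest in WT replicate 49 (8.07 CPM), where that sum was 250 CPM. A part of cell content in the Egr2 level was not tested. Nr4a1, an orphan nuclear receptor of the Nur77 family that corticotropin-releasing hormone induces in corticotrophs, averaged 76.4 ± 35.6 CPM in the pituitary and 17.6 ± 14.7 CPM in iWAT (SD, n = 10 each; log2 2.11, SE 0.37). Its ranges overlapped through the lowest pituitary library (20.5 CPM) and the highest iWAT library (57.6 CPM). Atf3, a stress-induced factor of the ATF/CREB family, was 1.52 ± 1.17 CPM in the pituitary and 6.00 ± 2.92 CPM in iWAT (SD, n = 10 each; log2 -1.97, SE 0.37).

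Ier2, which encodes a nuclear protein, and Dusp1, the phosphatase that inactivates MAP kinases and so ends the signal, did not pass between the tissues. Ier2 averaged 19.1 ± 5.88 CPM in the pituitary and 18.0 ± 3.38 CPM in iWAT (SD, n = 10 each; log2 fold change 0.07, 1.96 SE interval -0.23 to 0.36). Dusp1 averaged 64.4 ± 18.7 CPM in the pituitary and 57.5 ± 22.6 CPM in iWAT (SD, n = 10 each; log2 0.17, 1.96 SE interval -0.25 to 0.60).

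In all, 5 of 10 members were higher and 3 lower in the pituitary by edgeR's quasi-likelihood test with Benjamini-Hochberg adjustment over 17731 genes. In this comparison 84.5% of all genes tested were called, 41.2% as higher and 43.3% as lower, so a count of 8 of 10 is close to that background. Groups did not overlap for 4 of 10 members, against 55.6% of all genes. For each of the 8 called members the direction was the same for all 10 replicate numbers, while Dusp1 and Ier2 were each higher in the pituitary for 5 numbers. The 8 calls were also made in each fit that left out 1 replicate number, replicate 32 with its pituitary markers in iWAT included.

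Other genes of the same programme, from a list of 50 further primary response genes, were mostly lower in the pituitary: 8 were higher, 31 lower and 11 did not pass, with a median log2 fold change of -1.06 against 0.86 for the 10 members and -0.04 for all genes. The higher ones included Nr4a2, a relative of Nr4a1 (43.2 ± 20.7 CPM in the pituitary and 4.36 ± 1.53 CPM in iWAT; log2 3.31), the activity-dependent neuronal factor Npas4 (7.16 ± 2.79 CPM in the pituitary and 0.416 ± 0.199 CPM in iWAT; log2 4.03), and Btg2, an antiproliferative gene (318 ± 66.9 CPM in the pituitary and 125 ± 25.5 CPM in iWAT; log2 1.35; SD, n = 10 each). The lower ones included the phosphatase genes Dusp2 (log2 -4.32) and Dusp4 (-3.67) and the Krüppel-like factors Klf2 (-4.22) and Klf4 (-3.87), and also Egr3 (-2.23). Of 10 further AP-1 and small Maf partners 0 were higher and 7 lower. The background for each list count here is 84.5% of all genes called, 41.2% as higher and 43.3% as lower. Jund, the AP-1 subunit that is present without stimulation, was at 59.7 ± 2.90 CPM in the pituitary and 63.2 ± 6.20 CPM in iWAT (SD, n = 10 each) and did not pass (log2 -0.08), nor did Fosl2 (log2 -0.24). Of 21 kinases and transcription factors upstream of the members, 8 were higher and 11 lower in the pituitary, among them Crem, a cAMP-responsive factor (log2 1.33), and Srf, serum response factor itself (log2 -0.79).

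Between libraries of 1 tissue the members varied far more than most genes in the pituitary. The biological coefficient of variation, the spread between libraries of a labelled genotype beyond counting error, had a median of 0.318 over the members and of 0.0950 over the 16389 genes tested. It was above the 90th percentile of all genes for 9 of 10 members and largest for Fosb (0.628) and Atf3 (0.620), followed by Nr4a1 (0.508) and Fos (0.426). Jun was the exception at 0.152, the 77.3th percentile. In iWAT the members stood out less: the median was 0.353 over the members and 0.221 over 16105 genes, 8 members were above the median of all genes and 1, Nr4a1 (0.570), was above the 90th percentile. These are descriptions with no test. Atf3 and Egr2 rested on few reads in the pituitary, 7 to 79 and 12 to 54 per library.

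**Figure D2:**
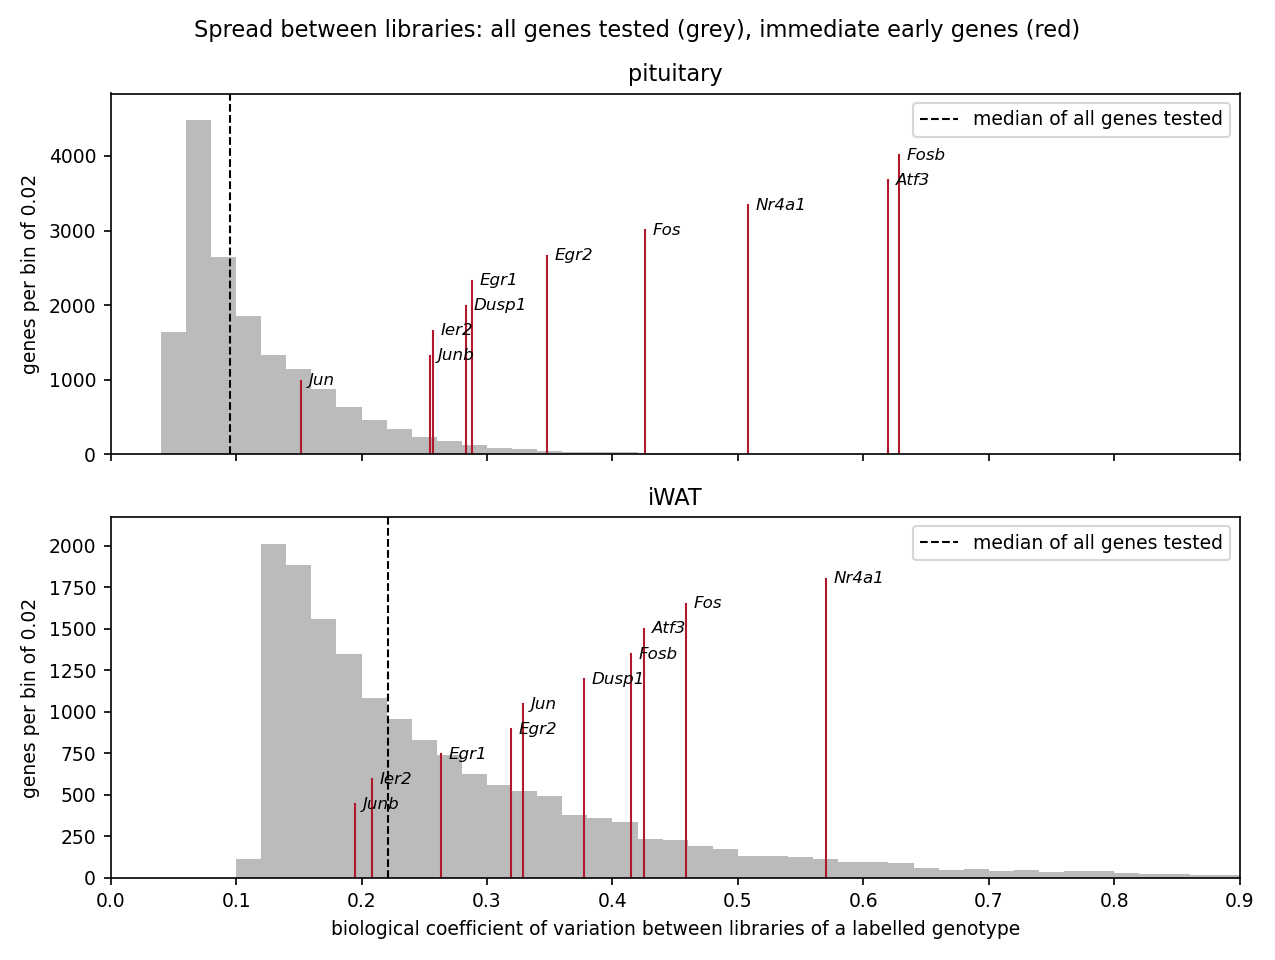
Number of genes (vertical axis) by biological coefficient of variation between libraries of a labelled genotype (horizontal axis) in the pituitary and in iWAT, in grey bars over all genes tested, with the members as red lines whose height only separates the names. In the pituitary 9 of 10 members lie above the 90th percentile, while in iWAT Junb and Ier2 lie below the median of all genes, drawn as a dashed line.

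The spread in the pituitary was shared between members. KO replicate 35 was the lowest of the 10 pituitary libraries for 10 of 10 members, with a median of -1.0 log2 units relative to the tissue median. KO replicate 66 was next to the bottom (-0.49), with 1 of 10 members above the median. WT replicate 48 had the highest median (0.55) and WT replicate 33 (0.53) was the highest library for 7 members, with 9 members above the tissue median in both. Within the labelled KO group the libraries thus ran from 0.41 in replicate 31 to -1.0 in replicate 35. In KO replicate 35 the summed level of 9 glucocorticoid-induced genes was 1058 CPM, the highest of the pituitary libraries, against 530 to 911 CPM in the other labelled KO and 595 to 917 CPM in the labelled WT libraries, and 0 of the 9 genes were at 0 in all libraries of a group. Fkbp5, the most abundant of them, was 260 CPM there. Fkbp5, Zbtb16, Tsc22d3 and Sgk1 were highest in replicate 35, and the rest of the list was not. Mt1, Mt2, Cdkn1a and Per1 were highest in KO replicate 50 (Mt1 145 CPM, against 114 CPM in replicate 35). Pdk4 was highest in WT replicate 34 (91.9 CPM, against 77.3 CPM in replicate 35). In replicate 66 the same sum was 665 CPM. The 6 acute heat shock genes, of which 0 were at 0 in all libraries of a group, summed highest in these same libraries, to 802 CPM in replicate 35 and 778 CPM in replicate 66, against 528 to 674 CPM in the other labelled KO and 534 to 668 CPM in the labelled WT libraries. Most of each sum was Hspa8, at 660 CPM in replicate 35 and 613 CPM in replicate 66. Hspa1a (10.1 and 8.91 CPM) and Hspa1b (11.4 and 11.2 CPM) were far less abundant, and were also highest in these libraries, as was Hsph1. Dnajb1 and Hspb1 were not. Dnajb1 was 36.3 CPM in replicate 66 but 29.0 CPM in replicate 35, against 32.9 CPM in KO replicate 32. Hspb1 was highest in WT replicate 33 (15.82 CPM), against 15.75 CPM in replicate 35 and 14.9 CPM in replicate 66.

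**Figure D3:**
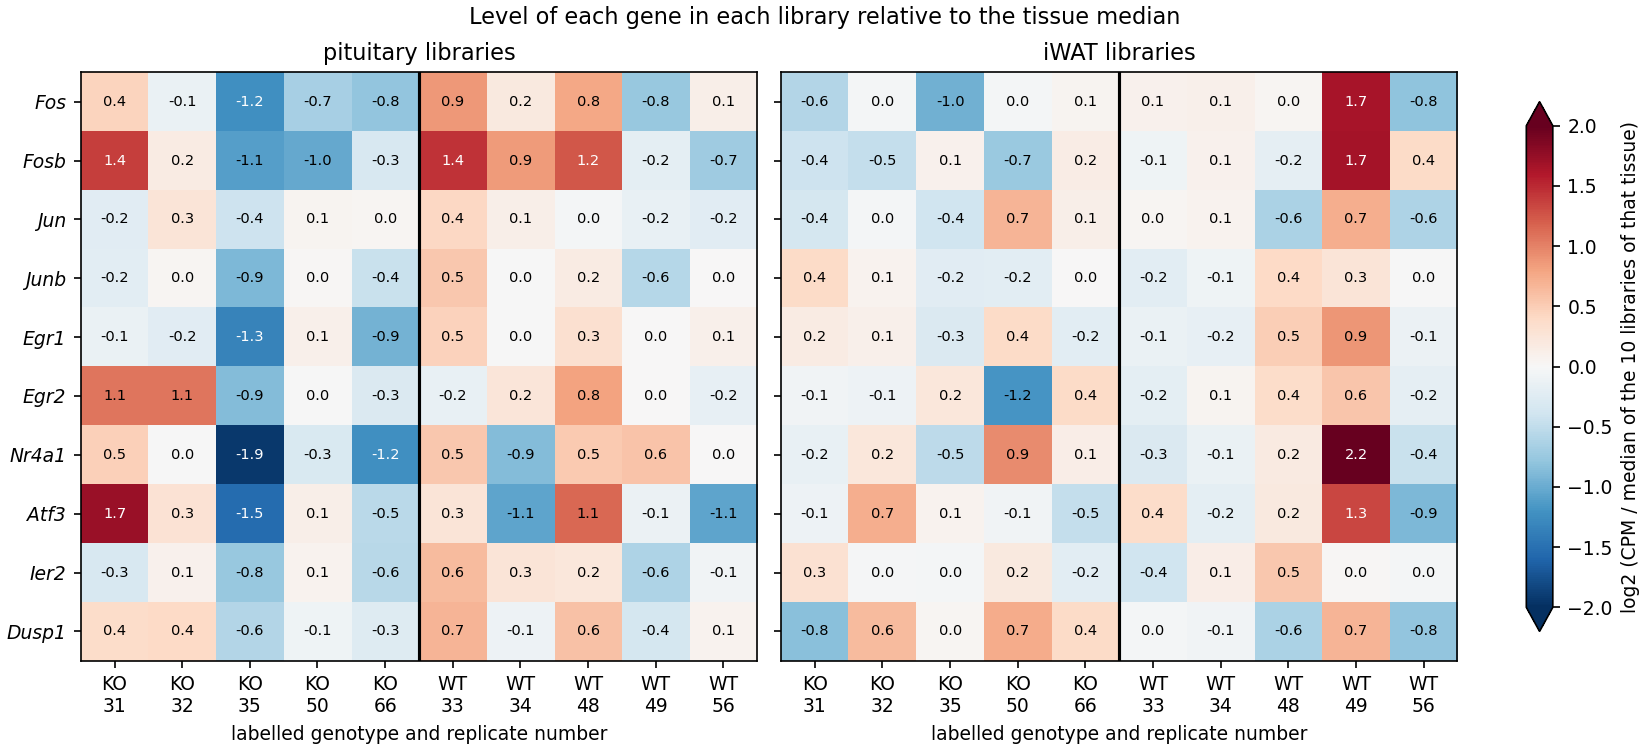
Log2 ratio of the CPM of each gene (rows) in each library (columns) to the median of the 10 libraries of that tissue, pituitary left and iWAT right, with labelled KO libraries left of the line in each panel. Pituitary KO replicate 35 is blue in every row (median -1.0) and iWAT WT replicate 49 is at or above 0 in every row (median 0.81).

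All 45 pairs of members correlated positively over the 10 pituitary libraries, with a median Pearson r of 0.61. With Fos taken as the reference member (a choice made after seeing the data, with 34 relations in the family), Dusp1 followed it most closely in the pituitary (r = 0.905, permutation p = 0.00058, adjusted p = 0.0197; rho = 0.867, permutation p = 0.00208, adjusted p = 0.0537; n = 10). Fosb (r = 0.862, rho = 0.855), Junb (r = 0.834, rho = 0.758), Ier2 (r = 0.792, rho = 0.806) and Egr1 (r = 0.766, rho = 0.721) followed, with adjusted permutation p = 0.0264, 0.0264, 0.0435 and 0.0347 for r and 0.0537, 0.127, 0.0779 and 0.136 for rho. Without the 2 libraries farthest from the median of Fos, r was 0.815 for Dusp1, 0.777 for Fosb, 0.648 for Junb, 0.590 for Ier2 and 0.535 for Egr1. After each labelled group's mean was subtracted, r was 0.938, 0.845, 0.795, 0.730 and 0.657 in the same order of genes. Jun had r = 0.449 (adjusted permutation p = 0.328), and -0.199 without the 2 libraries.

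The glucocorticoid-induced list had r = -0.641 with Fos in the pituitary (rho = -0.733), which did not pass (adjusted permutation p = 0.134 for r and 0.136 for rho; -0.399 without the 2 farthest libraries). Acute heat shock genes (r = -0.457, rho = -0.455), macrophage, B and T cell, blood, endothelial, skeletal muscle and smooth muscle markers did not pass either, with adjusted permutation p from 0.134 to 0.848 for r over these lists in the pituitary.

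In iWAT 35 of 45 pairs of members correlated positively, with a median r of 0.42. Nr4a1 passed with Fos (r = 0.881, adjusted permutation p = 0.0264, n = 10), but its rho was 0.527 (adjusted permutation p = 0.349) and its r was 0.429 without the 2 farthest libraries, so the relation rests on those libraries. They include WT replicate 49, in which Fos was at 37.2 CPM against 6.12 to 12.7 CPM in the other 9 iWAT libraries. The same library was highest for 7 of 10 members and above the tissue median for 10 of 10. Nr4a1 was 57.6 CPM there against 8.75 to 24.3 CPM in the other 9. Macrophage markers summed to 1227 CPM in this library, with 0 of 6 at 0 in all libraries of a group, against 457 to 746 CPM in labelled KO and 437 to 708 CPM in the other labelled WT libraries. Over the 10 iWAT libraries the macrophage sum had r = 0.722 with Fos (adjusted permutation p = 0.107) and rho = 0.188 (adjusted permutation p = 0.687), and r was 0.0072 without the 2 farthest libraries, so it did not pass and rests on those libraries. The other 7 lists did not pass in iWAT either (adjusted permutation p from 0.383 to 0.671 for r).

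Outside the members, the genes whose levels over the 10 pituitary libraries were most like the mean standardized profile of the members were Btg2 (r = 0.954), 3010001F23Rik (0.922), Nr4a2 (0.903), Rasgef1a (0.895), Tmem38a (0.890), Tmem63b (0.889), Gmppb (0.888) and Leng9 (0.883), of 16379 genes. Of these, Btg2 and Nr4a2 belong to the list of further primary response genes. In that list 30 of 49 genes had a positive r, with a median of 0.117, against 48.7% positive among all genes. In iWAT the most alike were Mmp14, a membrane-bound matrix metalloproteinase (r = 0.921), Antxr1 (0.899), Timp2, an inhibitor of such enzymes (0.888), Mfsd11 (0.886), Sdk1 (0.880), Scara3 (0.870), Fcer1a (0.867) and P2rx7 (0.864), of 16095 genes. None of these 8 is in the primary response list, in which 30 of 48 genes had a positive r in iWAT (median 0.143), against 52.1% of all genes. These values describe 10 libraries of each tissue, which differed in depth and whose dissection is not described, and carry no test. In iWAT, WT replicate 49 was the highest library for 7 members, and r to the member profile was not computed without it. Fcer1a was scarce in iWAT, with a mean of 1.03 CPM (0.358 to 3.09 CPM).

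No member's level passed a test of relation between libraries that carry the same number in both tissues. Over the 10 numbers, r between the pituitary and the iWAT level ranged from -0.405 for Dusp1 to 0.454 for Egr1, and 0 of 10 members passed (smallest adjusted permutation p = 0.908). KO replicate 35, the lowest pituitary library for 10 members, was the lowest iWAT library for 4, and WT replicate 49, the highest in iWAT, had a median of -0.17 log2 units in the pituitary.

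The libraries labelled Klf14 KO were then compared with those labelled WT within each tissue. Klf14 itself was higher in the pituitary libraries labelled KO, and its deleted stretch is not described. This therefore compares the labels, and whether Klf14 function was lost could not be checked. In the pituitary 0 of 10 members passed, against 0.549% of all 16389 genes (90 genes; edgeR, adjusted p threshold 0.05). That background moved with the fit, to 288 genes with DESeq2, 44 with age as a covariate, 5 with libraries of 21 weeks only and 1 in a fit over all 20 libraries, and no member was among them. At an unadjusted p under the same threshold 1 of 10 members passed, against 10.9% of all genes. Groups did not overlap for 0 of 10 members, against 2.85% of all genes. Log2 fold changes were negative for 8 of 10 members with a median of -0.37, against 48.8% and a median of 0.0036 over all genes. Without WT replicate 33 the median was -0.22 and 7 were negative. Without each of the other 9 libraries in turn the median lay between -0.48 and -0.26. All 10 members were negative without KO replicate 31, and 9 without KO replicate 32. With age as a covariate the median was -0.42, with libraries of 21 weeks only it was -0.51, and with limma voom it was -0.29. In each of these fits 8 were negative.

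Fos was 177, 119, 55.3, 82.2 and 74.9 CPM in pituitary libraries labelled KO (replicates 31, 32, 35, 50 and 66), against 237, 149, 223, 77.2 and 141 CPM in those labelled WT (33, 34, 48, 49 and 56). The labelled KO libraries were lower on average, but replicate 31 was above 3 labelled WT libraries and the groups overlapped. The log2 fold change was -0.70 (SE 0.40, edgeR adjusted p = 0.584).

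Egr1 was 72.8, 68.4, 31.5, 85.2 and 41.2 CPM in pituitary libraries labelled KO, against 109, 79.1, 99.8, 80.2 and 85.4 CPM in those labelled WT, in the same order of replicates. Replicates 35 and 66 were the lowest, and replicate 50 overlapped the labelled WT range. Its log2 fold change was -0.60 (SE 0.26, unadjusted p = 0.0485, edgeR adjusted p = 0.455), and the exact two-sided permutation test over all assignments of the labels gave p = 0.0238, unadjusted, where the smallest possible is 0.00794. Without KO replicate 35 the log2 fold change was -0.44.

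Nr4a1 was 109, 77.9, 20.5, 63.3 and 33.2 CPM in pituitary libraries labelled KO, against 113, 42.9, 112, 115 and 78.0 CPM in those labelled WT. The lowest 2 were labelled KO, but the other 3 lay within the labelled WT range (log2 fold change -0.60, SE 0.47, edgeR adjusted p = 0.714). Fosb had a log2 fold change of -0.59, Ier2 of -0.41, Junb of -0.33, Dusp1 of -0.21 and Jun of -0.08, while Egr2 (0.21) and Atf3 (0.34) were positive. Jun had the narrowest interval, from -0.36 to 0.20, and Fosb and Atf3 among the widest, -1.74 to 0.56 and -0.83 to 1.51. Without 1 library at a time Fosb ran from -1.21 (without KO replicate 31) to -0.34 (without WT replicate 33) and Nr4a1 from -0.92 (without KO replicate 31) to -0.38 (without KO replicate 35), while Ier2, Junb and Dusp1 were negative in each such fit, at most -0.25, -0.18 and -0.068. The plot of members by library shows the overlap of the groups for each gene.

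**Figure D4:**
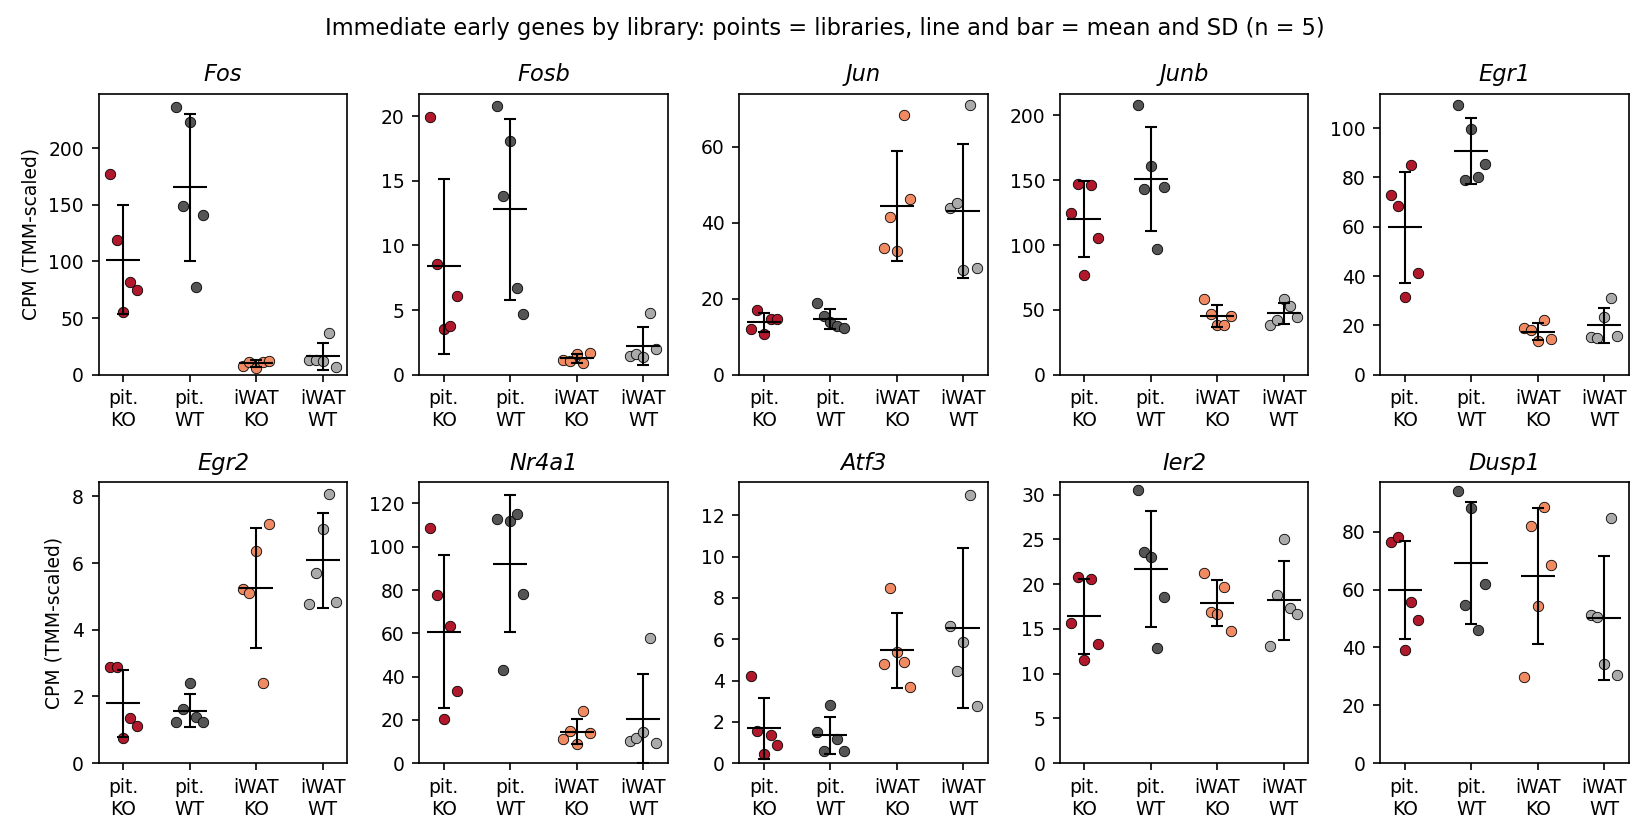
CPM of each gene (vertical axis, TMM-scaled, linear from 0) in the 4 groups of 5 libraries, with points for libraries and a line and bar for mean and SD (a bar that reaches below 0 is clipped at 0). The labelled KO and labelled WT points overlap in every panel and tissue, and in iWAT WT replicate 49 stands apart for Fos, Fosb and Nr4a1.

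In iWAT 0 of 10 members passed between the labelled genotypes, against 0% of all 16105 genes (0 genes with edgeR, DESeq2 or limma voom), and groups did not overlap for 0 members, against 0.0807% of all genes. At an unadjusted p under 0.05, 0 of 10 members and 89 genes (0.553%) passed with edgeR, while DESeq2 had 127 and limma voom 253 genes. Log2 fold changes were negative for 8 of 10 members with a median of -0.23, against 50.1% of all genes. Without WT replicate 49 the median was -0.03 and 6 were negative. With libraries of 21 weeks only (4 KO, 2 WT) the median was 0.10 and 4 were negative, and with age as a covariate it was -0.07 and 7 were negative.

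In iWAT Fos was 7.94, 11.6, 6.12, 11.6 and 12.3 CPM in libraries labelled KO (replicates 31, 32, 35, 50 and 66), against 12.5, 12.7, 12.1, 37.2 and 6.81 CPM in those labelled WT (33, 34, 48, 49 and 56). All but replicate 49 lay within the same range of low values, and the log2 fold change of -0.74 (SE 0.42, edgeR adjusted p = 1.0) was -0.19 without that library. Nr4a1 was 11.3, 14.8, 8.75, 24.3 and 13.8 CPM in libraries labelled KO, against 10.4, 11.5, 14.4, 57.6 and 9.30 CPM in those labelled WT. Its log2 fold change of -0.53 (SE 0.53) turned to 0.32 without replicate 49. Fosb had a log2 fold change of -0.81 (SE 0.39, unadjusted p = 0.0651), or -0.33 without it. Dusp1 was at 0.34, and the other 6 members lay between -0.29 and 0.01.

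**Figure D5:**
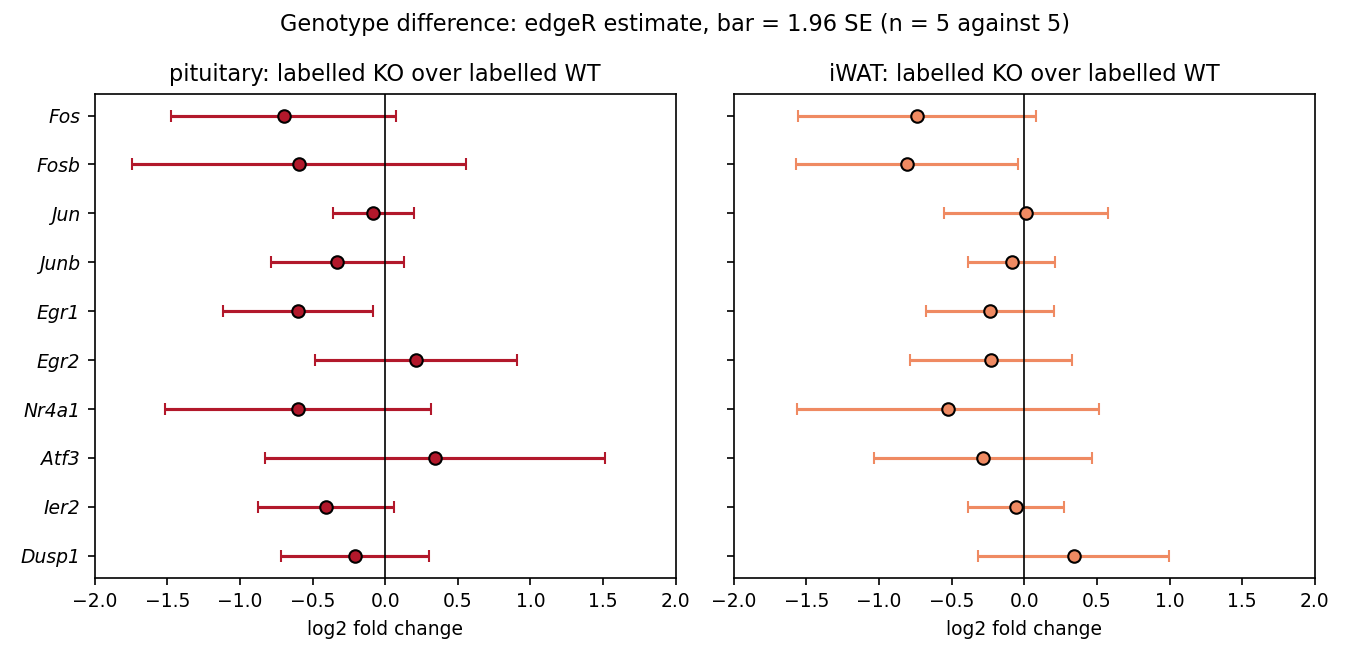
Log2 fold change of labelled KO over labelled WT libraries (horizontal axis) for each gene (rows) in the pituitary (left) and in iWAT (right), estimated by edgeR from 5 against 5 libraries, with bars of 1.96 SE. Pituitary Egr1 and iWAT Fosb have bars that end below 0 (-0.09 and -0.04), and neither passed after adjustment.

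Whether the difference between labelled genotypes itself differed between the tissues was tested in 1 fit over all 20 libraries. It passed for 0 of 10 members, against 0% of 17731 genes with edgeR, and at an unadjusted p under 0.05 for 0 members against 2.41% of genes (427). DESeq2 called 1 gene and limma voom 0, none of them a member. The difference for Fos was 0.02 log2 units (1.96 SE interval -1.08 to 1.11), and the other members lay between -0.57 for Dusp1 and 0.60 for Atf3. These intervals are wide enough to hold changes of more than 1 log2 unit for Fos in either direction.

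Of the 50 further primary response genes, 0 of 49 tested in the pituitary and 0 of 48 tested in iWAT passed between labelled genotypes. In the pituitary 3 of the 49 had an unadjusted p under 0.05, a smaller share than the 10.9% of all genes: the synaptic gene Arc (20.2 ± 5.41 CPM over labelled KO and 35.6 ± 11.5 CPM over labelled WT libraries, log2 fold change -0.82), Npas4 (5.51 ± 1.55 CPM over labelled KO and 8.81 ± 2.88 CPM over labelled WT libraries, log2 -0.67) and the stress phosphatase subunit Ppp1r15a (log2 -0.26), and these were named after their values were seen (SD, n = 5 each). The median log2 fold change of this list was -0.03 in the pituitary and 0.05 in iWAT. Of the 21 upstream regulators 0 passed in either tissue.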

How the data were processed

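Poly(A) libraries were sequenced as 100 nucleotide single-end reads, about 46 M (mega) reads per sample, per the labels. The deposited values are whole-number counts of reads per gene, not normalized. Per the file headers, the authors counted with featureCounts over the exons of a UCSC mm10 gene annotation, using primary alignments only, assigning a read to every gene it overlapped and giving no strand option. Versions, per the submitters' processing notes, were 2.4.0 of STAR and 1.4.4 of featureCounts, with builds mm10 and GRCm38. Libraries of a group differed by more than sampling noise (smallest reduced chi-square 4.51), so all 20 were kept.

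Genes were kept by filterByExpr, scaled by TMM and tested with the robust quasi-likelihood method of edgeR 4.0.16 (R 4.3.3). P-values were adjusted by Benjamini-Hochberg over all genes tested, with a threshold of 0.05. Fits took each tissue alone for the labelled genotypes, and all 20 libraries as 4 groups for the tissues and for the difference between tissues. Intervals are 1.96 SE, with the SE taken as the log2 fold change over the square root of F. Levels are CPM with TMM over all 20 libraries, and per kilobase values divide by the counted exon length. Correlations used log2(CPM + 0.5) and 100000 permutations in scipy 1.17.1. Alternatives were RLE scaling, no filter, a filter of over 1 CPM in 5 or more libraries, DESeq2 1.42.0, voom with quality weights in limma 3.58.1, age as a covariate, 21 weeks only, 1 fit over all libraries, 1 genotype only, an exact permutation test, leaving out each replicate, and the replicate number as a block. Fits were tested on simulated counts. In the pituitary (16303 genes) 68% of 1.5-fold and 86.9% of 2-fold changes were called, with 7 of 161 calls false. In iWAT (15963 genes) 4.04% and 39% were called, with 2 of 45 false. Recovery for the members alone was not tested. Their median biological coefficient of variation was 0.318 in the pituitary, against 0.0950 for all genes tested, and 0.353 in iWAT, against 0.221.

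Named genes are the members, Klf14, genes of the lists that passed or were among the most abundant, and the 8 genes most like the members in each tissue. Of the list genes, 1 (Adgre1) was matched by an older symbol. The members, gene lists and tests were chosen with earlier results of these data known. Sequences are from RefSeq, build GRCm38.p6.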

Additional observations from a re-analysis of the deposited data

Results flagged for a closer look

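Each of the 40 combinations of a member and a group of 5 libraries was examined for a library far from the others (Dixon's ratio of the gap to the nearest library over the whole range, critical value 0.71, which chance exceeds in about 1 group in 20). It was exceeded in 3, all of them the iWAT library of WT replicate 49, which was the highest: Nr4a1 with a ratio of 0.895 (57.6 CPM, next 14.4 CPM), Fosb with 0.816 (4.77 CPM, next 1.97 CPM) and Fos with 0.805 (37.2 CPM, next 12.7 CPM). The pituitary library of the same number gave no such ratio.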

How the results depend on the processing

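No member passed between labelled genotypes in either tissue, nor for the difference between tissues, and 8 passed between tissues, under every alternative run. For all genes in the pituitary 90 calls became 288 with DESeq2, 44 with age as a covariate, 5 with libraries of 21 weeks only, 1 in 1 fit over all 20 libraries and 50 to 112 without 1 replicate (lowest without WT replicate 49, highest without KO replicate 50). DESeq2 gave no adjusted p for Nr4a1 in iWAT and called 1 gene for the difference between tissues. The exact permutation test gave a difference of -0.68 log2 units for pituitary Egr1, past the unadjusted threshold.

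Some log2 fold changes that did not pass changed sign, and the cause was not tested. Leaving out 1 replicate gave, in the pituitary, -0.36 to 0.81 for Atf3, -0.027 to 0.42 for Egr2 and -0.17 to 0.034 for Jun. In iWAT it gave -0.18 to 0.27 for Jun, -0.19 to 0.0036 for Junb, -0.16 to 0.090 for Ier2, -0.77 to 0.32 for Nr4a1 and -0.51 to 0.12 for Atf3. For the difference between tissues it gave -0.69 to 0.26 for Fos, -0.48 to 0.54 for Fosb, -0.14 to 1.09 for Atf3, -0.39 to 0.077 for Jun and -0.83 to 0.17 for Nr4a1, and between tissues -0.060 to 0.17 for Ier2. In iWAT, limma voom gave 0.071 for Egr2 and 0.077 for Atf3, age as a covariate gave 0.032 for Ier2, and 21 weeks only gave -0.22 for Jun, 0.21 for Junb, 0.093 for Egr1, 0.18 for Egr2, 0.11 for Ier2 and 0.15 for Nr4a1. For the difference between tissues, limma voom gave -0.37 for Fos and -0.053 for Fosb. Between tissues, KO libraries only gave -0.12 for Ier2 and -0.11 for Dusp1. The correlation of same-numbered libraries turned to -0.063 for Egr1 and 0.062 for Egr2 without the 2 farthest numbers, and to 0.0057 for Egr2 and -0.070 for Ier2 without TMM.

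Same-numbered libraries correlated by -0.065 to 0.092 in their deviations from the group means, below 0.1 in all 10. These values were above the mean correlation with other numbers for every replicate except 50 (-0.065 against 0.029). They were above the highest correlation with another number for replicates 31, 32, 34, 48 and 66. For replicates 33, 35, 49, 50 and 56 they were below it. The labels do not say whether same-numbered libraries share an animal, so the numbers were not taken as pairs. With the replicate number as a block 8 members and 14880 genes passed between tissues (14976 without the block), 0 members and 0 genes passed for the difference between tissues, and that difference was -0.26 for Fos and -0.023 for Fosb. Numbers are not shared between labelled genotypes, so no block is possible within a tissue. Counting error limits pituitary Atf3 and Egr2.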
